A study of Mus musculus with 48 samples.

Results

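The cortical miRNAs of wild-type (WT) mice were compared between 17 and 10 months of age. All mice were male and of the C57BL/6J strain, and total RNA from 3 cortex samples of each age was hybridized to 1-colour miRNA arrays, 1 array per sample. Of the 1023 mouse miRNAs on the array, 314 were detected on at least 2 of the 3 arrays of an age, and these 314 are the miRNAs described. No measured difference between the ages was used to choose them. A miRNA was called detected where at least 1 of its probes lay well above the background of the array. Per array, 308 to 314 miRNAs were detected at 10 months and 239 to 257 at 17 months. The same study profiled the cortex of Tg2576 mice, which carry a mutant human APP transgene, and the whole brain of both genotypes at both ages. The labels give no litter or cage, so p-values measure the spread between these samples.

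A miRNA is a short RNA that guides an Argonaute protein to mRNAs, chiefly by pairing of its seed, bases 2 to 8 from the 5′ end, and thereby lowers their translation or stability. Both strands of a hairpin can yield a mature miRNA, and a star marks the strand that was the rarer in older nomenclature. Some miRNAs are characteristic of a cell type, such as miR-124 and miR-128 of neurons, miR-219 of oligodendrocytes, miR-126 of endothelium and miR-451 of erythrocytes. Signal on a bulk array therefore depends on the cells in the sample, and fewer cells of a type and less RNA per cell cannot be told apart.

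Mature sequences were taken from RefSeq on GRCm38.p6 for 252 of the 314 miRNAs, by name or by the current name of an older entry. The miRNAs that lay higher at 17 months by the rule given below are shown first, because 6 of these 9 have a GC content of 60% or more. Of the 193 miRNAs with a sequence and with signal above the floor given below on all 6 arrays, 18 do. Capitals mark the seed.
miR-1224: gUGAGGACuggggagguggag (chr16:20604452-20604472, plus strand)
miR-1895: cCCCCGAGgaggacgaggagga (chr3:134240515-134240536, minus strand)
miR-494: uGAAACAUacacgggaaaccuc (chr12:109715367-109715388, plus strand)
miR-3085-3p: uCUGGCUGcuauggcccccuc (chr19:42280095-42280115, minus strand)
miR-652*: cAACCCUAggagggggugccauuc (chrX:142739020-142739043, plus strand)
miR-370: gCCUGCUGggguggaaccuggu (chr12:109618305-109618326, plus strand)
miR-29b-1*: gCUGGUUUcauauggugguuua (chr6:31063067-31063088, minus strand)
miR-331-3p: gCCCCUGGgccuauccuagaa (chr10:93963783-93963803, minus strand)
miR-29c*: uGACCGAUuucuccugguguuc (chr1:195037562-195037583, plus strand)
Those that lay lower at 17 months are shown for comparison. Seed capitals show that none of these 6 shares a seed with another.
miR-451: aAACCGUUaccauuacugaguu (chr11:78073186-78073207, plus strand)
miR-690: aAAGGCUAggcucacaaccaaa (chr16:28599940-28599961, minus strand)
miR-132: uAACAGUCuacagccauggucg (chr11:75173723-75173744, plus strand)
miR-130b: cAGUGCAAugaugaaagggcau (chr16:17124071-17124092, minus strand)
miR-19b: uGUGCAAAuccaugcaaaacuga (chr14:115044358-115044380, plus strand)
miR-25: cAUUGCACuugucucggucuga (chr5:138165332-138165353, minus strand)
One further miRNA is cut from the same primary transcript as miR-451 and is described with it.
miR-144: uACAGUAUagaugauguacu (chr11:78073047-78073066, plus strand)
Members of the miR-200 family fall into 2 seed groups, miR-200b, miR-200c and miR-429 in the first and miR-200a and miR-141 in the second, which differ at 1 seed base. They are shown because all 5 were highest on the same array.
miR-200b: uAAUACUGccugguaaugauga (chr4:156055685-156055706, minus strand)
miR-200c: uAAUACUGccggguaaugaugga (chr6:124718324-124718346, minus strand)
miR-429: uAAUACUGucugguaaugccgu (chr4:156053916-156053937, minus strand)
miR-200a: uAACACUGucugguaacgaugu (chr4:156054911-156054932, minus strand)
miR-141: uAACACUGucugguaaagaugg (chr6:124717917-124717938, minus strand)

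The arrays of 17-month-old mice were dimmer. The 75th percentile of the signal, taken over the 403 probes that cleared background on every one of the 24 miRNA arrays, was 679.1, 778 and 848 intensity units at 10 months and 391, 350 and 425 at 17 months. All 3 arrays of the older mice lay below the 3 of the younger, with a mean log2 difference of -0.98 (1.97-fold; p = 0.1 by exact permutation, 2-sided, which 3 arrays against 3 cannot go below). Spike-in RNAs, added as controls of labelling and of hybridization, overlapped between the ages. The geometric mean of the labelling controls ranged from 1229 to 2055 at 10 months and from 1567 to 2134 at 17 months (exact permutation p = 0.7). That of the hybridization controls ranged from 9324 to 12493 at 10 months and from 12298 to 12756 at 17 months (exact permutation p = 0.5). Relative to the labelling controls, the 75th percentile was 2.16-fold lower at 17 months (log2 difference -1.11), and relative to the hybridization controls it was 2.18-fold lower (-1.13), without overlap between the ages (exact permutation p = 0.1 for both). In Tg2576 cortex the mean 75th percentile was 593 at 10 months and 535 at 17 months, and the arrays overlapped. The cause of the lower brightness in the older WT cortices was not tested.

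**Figure D1:**
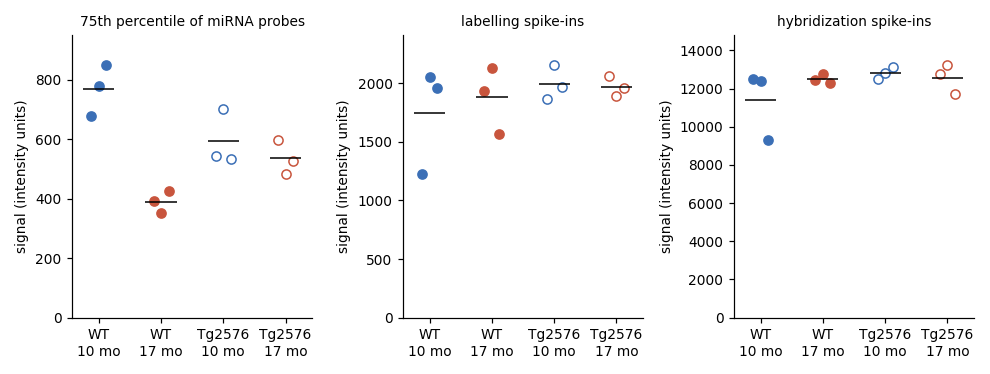
Signal per array, in intensity units on linear axes from 0, for WT (filled) and Tg2576 (open) cortices, with bars at group means (n = 3). The 75th percentile of the miRNA probes lies between 350 and 425 in 17-month-old WT cortices, below the other groups, and both kinds of spike-in overlap between the ages.

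Because of this gap, the scaling decides what a comparison of single miRNAs means. In the main scaling each array was divided by the 75th percentile above, so that a value of 0 on the log2 scale is the 75th percentile of the array and a difference is relative to the bulk of miRNAs. Values under a floor of -5.73 on that scale were raised to it. With this scaling limma called 0 of the 314 miRNAs (0%) at an adjusted p under 0.05, and the smallest adjusted p was 0.082. At an unadjusted p under 0.05 there were 21 (6.69%), of which 11 were higher at 17 months (3.5%) and 10 lower (3.18%). That count of 21 was 10 without 10-month replicate 2, 11 without 17-month replicate 2, 33 without 17-month replicate 3 and 36 without 10-month replicate 3. The methods' t-test, run on the same values, gave 20 at an unadjusted p under 0.05, 0 of them past a 2-fold difference, and 0 after Benjamini-Hochberg adjustment. In 32 miRNAs (10.2%) the ages did not overlap, 16 in each direction. With 3 arrays against 3, a share of 0.1 of the possible orderings is without overlap. For the 21, the count by chance alone is 14, over the 270 miRNAs not at the floor on all 6 arrays.

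The size of the differences can be read from the 237 miRNAs above the floor on all 6 arrays. Their median log2 difference was 0.01, with a 5th percentile of -0.20 and a 95th of 0.33. For 94.1% of them the 95% interval of the difference lay within 2-fold in either direction. A log2 difference over 0.5 in size was seen in 10, and over 1 in miR-451 alone. miR-1937b, the brightest, measured 6.63, 6.46 and 5.98 at 10 months and 6.69, 6.67 and 6.39 at 17 months on the log2 scale, and the ages overlapped. miR-128, abundant in neurons, differed by -0.18 (standard error 0.17) and miR-29a by 0.01 (standard error 0.08).

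A second scaling took the 75th percentile from all probes of the array, most of them near background. Limma then called 1 of 314 miRNAs (0.318%), miR-1224, at a log2 difference of 0.89 (limma adjusted p = 0.00899, against 0.127 with the main scaling). The scalings differ by 1 factor per array, so miRNAs above the floor shift alike, as miR-29c* from 0.15 to 0.11. The direction of each of the 17 miRNAs named below was the same under both, which is therefore not separate support.

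With the labelling spike-ins, an alternative chosen after seeing the data, limma called 232 of 314 miRNAs lower at 17 months (73.9%) and 0 higher, with a median log2 difference of -1.03. Of the 237 above the floor, all but 15 were called, and their differences ran from -2.82 to -0.18 with a median of -1.09. These calls share 1 factor per array and are not independent of each other. The exact test on that factor is the one given with the brightness above. Among the 15 not called were miR-1224 at -0.18, miR-1895 at -0.18, miR-494 at -0.34, miR-7a at -0.45 and miR-7b at -0.50, which the main scaling placed above the bulk.

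**Figure D2:**
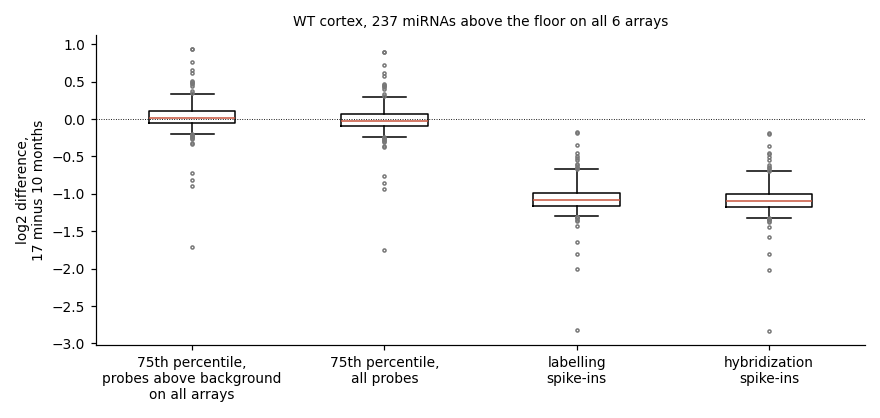
Log2 difference, 17 minus 10 months, of the 237 miRNAs above the floor on all 6 arrays under 4 scalings; boxes give the quartiles, red lines the median, whiskers the 5th and 95th percentiles and dots the miRNAs beyond. Medians stand near 0 for both percentile scalings and near -1.1 for both spike-in scalings.

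By the rule for naming, an unadjusted p under 0.05, no overlap between the ages and detection on at least 1 array of each age, 11 miRNAs were higher at 17 months and 6 lower. None passed the adjusted test. miR-1224, which is spliced out of an intron of Vwa5b2, stood at -2.57, -2.72 and -3.18 at 10 months and at -1.82, -2.02 and -1.83 at 17 months. It had the largest difference of the 11, at 0.94 (standard error 0.17, limma adjusted p = 0.127). miR-1895 was next, with -0.74, -0.94 and -1.43 at 10 months and -0.06, -0.43 and 0.17 at 17 months, a difference of 0.93 (standard error 0.23, limma adjusted p = 0.405). Both were well above background on all 6 arrays.

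miR-3092 and miR-3085-3p had the smallest p of those higher at 17 months, and both were near the limit of detection. miR-3085-3p stood at -5.72, -5.73 and -5.67 at 10 months, at or next to the floor, and at -4.78, -5.05 and -5.10 at 17 months, a difference of 0.73 (standard error 0.10, limma adjusted p = 0.082). It was nevertheless detected on 3 arrays at 10 months and on 1 at 17 months, detection being judged on each array before scaling. miR-3092 was at -5.73, -5.73 and -5.70 and then at -4.57, -4.87 and -5.04, with detection on 2 arrays and on 1. Their differences therefore depend on signal close to background, and with a floor 2 times higher that of miR-3085-3p was 0 and that of miR-3092 was 0.06.

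The imprinted Dlk1-Dio3 cluster, a large group of miRNAs made from the maternal chromosome and prominent in neurons, held 2 of the 11. These are 3.92% of its 51 tested members, near the 3.5% of all 314 miRNAs that were higher at an unadjusted p under 0.05. miR-494 differed by 0.77 (standard error 0.27), from -4.14, -4.12 and -4.95 to -3.52, -3.96 and -3.43. Without 10-month replicate 3, the lowest of these arrays, it differed by 0.49. miR-370 differed by 0.35 (standard error 0.09), from -3.19, -3.29 and -3.38 to -2.88, -2.85 and -3.10. Of the 51 tested members of the cluster 30 were higher, 16 lower and 5 at the floor, with a median of 0.03 against 0 for all 314.

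Rarer strands of the miR-29 genes were also in the group. miR-29b-1* differed by 0.33 (standard error 0.06) and miR-29c* by 0.15 (standard error 0.06). The first was 0.05 with the authors' log2 values (limma adjusted p = 0.88), 0.01 with the total signal and 0 with a floor 2 times higher, and the second was 0.06 with the total signal. Their partners are the abundant strands that act on collagens and other matrix mRNAs. miR-29b differed by 0.08 (standard error 0.06), without overlap, and miR-29c by -0.02 (standard error 0.07). Neither had an unadjusted p under 0.05. The other 3 of the 11 were miR-652* at 0.49, miR-2145 at 0.45 and miR-331-3p at 0.25. Without 10-month replicate 3 miR-2145 was at 0.25.

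**Figure D3:**
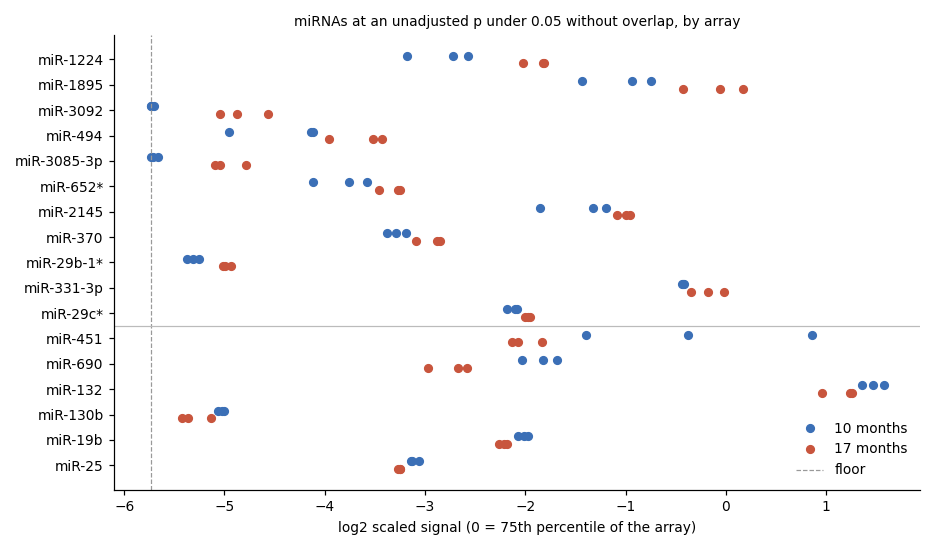
Log2 scaled signal of the 17 named miRNAs on each of the 3 arrays at 10 months (blue) and 17 months (red), with those higher at 17 months above the line and those lower below it. The dashed line is the floor of -5.73, where the 10-month values of miR-3092 and miR-3085-3p lie.

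The median difference stood apart in the miRNAs richest in GC and changed little over the other GC bands. Over the bands of G content it rose at each step. Among the miRNAs above the floor with a sequence (193 of 237), the median log2 difference was 0.01 in the 44 with a GC content under 40%, -0.0046 in the 80 from 40% to under 50%, 0.02 in the 51 from 50% to under 60%, and 0.21 in the 18 of 60% or more, of which 14 were higher at 17 months. By G content alone, the median was -0.01 in the 109 miRNAs under 25% and 0.03 in the 55 from 25% to under 35%. It was 0.10 in the 20 from 35% to under 45% and 0.24 in the 9 of 45% or more. The band of 60% or more holds the named miR-1224, miR-1895, miR-652*, miR-370 and miR-331-3p. These were named because they were higher, so the median of the band is not separate from the naming. miR-1224 is 66.7% GC (61.9% G) and miR-1895 is 72.7% GC, as the printed sequences show. The higher miR-494 and the lower miR-690 are both 45.5% GC, and the lower miR-451 is 36.4% GC. These points share the same 6 arrays and their brightness, and the part of base composition in the named differences was not tested.

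Among the miRNAs lower at 17 months, miR-451 had the largest difference. This erythrocyte miRNA, which matures through Argonaute 2 without Dicer, measured -1.39, -0.38 and 0.86 at 10 months and -1.83, -2.13 and -2.07 at 17 months. The 17-month samples lay close together below a wide spread at 10 months, for a difference of -1.71 (standard error 0.55, limma adjusted p = 0.609). Without 10-month replicate 3 it was -1.12. miR-144 from the same transcript was at -5.73, -5.18 and -4.00 at 10 months and at the floor on all 3 arrays at 17 months. It was detected on 2 arrays at 10 months and 0 at 17 months, and the 10-month mean did not exceed the mean of the lowest levels detectable on the 17-month arrays, so no fold is given. Together the summed scaled signal of the 2 ranged from 0.40 to 1.88 at 10 months and from 0.25 to 0.30 at 17 months.

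mRNA arrays of these ages gave the blood transcripts. Hba-a1, alpha globin, was at 4.47, 5.57 and 6.32 at 10 months and at 3.41, 3.38 and 3.12 at 17 months on the log2 scale, a difference of -2.15 (standard error 0.45, limma adjusted p = 0.0537). Alas2, the erythroid enzyme of haem synthesis, was at -2.02, -0.75 and 0.12 and then at -2.88, -2.84 and -2.92, a difference of -2.00 (standard error 0.51, limma adjusted p = 0.0768). In both assays the array numbered 3 was the highest and the array numbered 1 the lowest of the 10-month group. The summed signal of both blood mRNAs was 22.3 to 80.9 at 10 months and 8.80 to 10.75 at 17 months. The labels do not say whether equal array numbers mean the same mouse. The part of blood in the tissue in these differences was not tested.

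**Figure D4:**
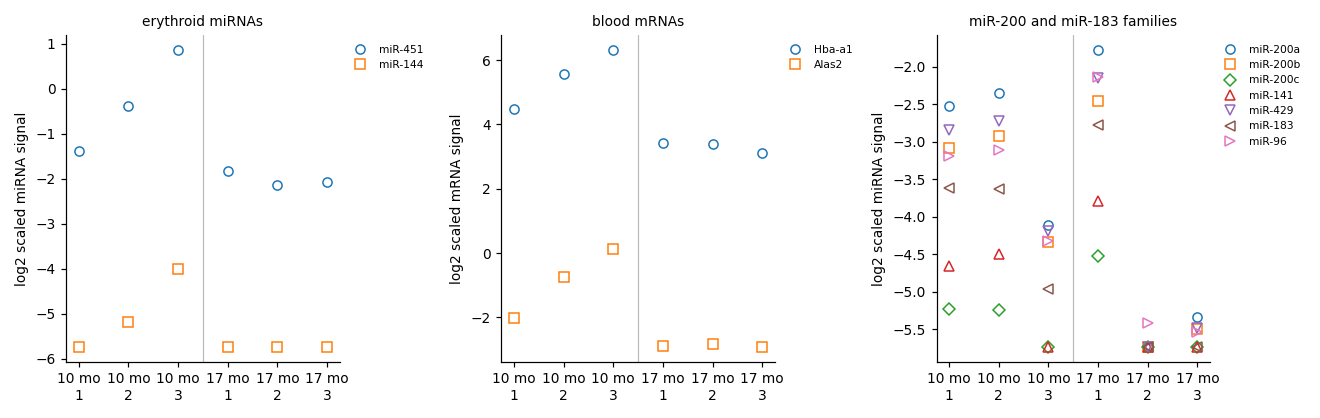
Log2 scaled signal per array for miR-451 and miR-144, for the blood mRNAs Hba-a1 and Alas2, and for 7 miRNAs of the miR-200 or miR-183 family; the horizontal axis gives age and array number, and the grey line parts the ages. Erythroid signals are highest on 10-month array 3, and those 7 miRNAs are all highest on 17-month array 1.

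miR-690 was the other large one, at -1.68, -1.82 and -2.03 at 10 months and -2.97, -2.68 and -2.58 at 17 months, a difference of -0.90 (standard error 0.14, limma adjusted p = 0.082). miR-132, which neuronal activity induces through CREB and which promotes dendritic spines, measured 1.46, 1.57 and 1.36 and then 1.23, 0.96 and 1.25. Its difference was -0.31 (standard error 0.11, limma adjusted p = 0.624). miR-212-3p, from the same primary transcript and named after its values were seen, differed by -0.01. The smaller ones were miR-130b at -0.27, miR-19b at -0.20 and miR-25 at -0.14.

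The last 2 belong to the clusters related to that of miR-17, related loci known for promoting proliferation. Of their 8 tested members 7 were lower and 1 higher at 17 months, with a median of -0.12. With normexp background correction, which adds an offset of 50 that outweighs dim signal, the median was 0.36. At an unadjusted p under 0.05, 3 were lower, where 3.18% of all 314 were. miR-19a, the third of these, was detected on all 3 arrays at 10 months and lay at the floor on all 3 at 17 months, so no fold is given. miR-106b stood at -0.11 and miR-93 at -0.14, while miR-92a stood at 0.01. The miR-15/16 family, which shares the seed of miR-16 and restrains the cell cycle, had 6 of 6 members lower. Its median was -0.09 (0.01 with normexp), with a range from -0.20 to -0.04. All 5 members of the miR-30 family were lower as well, with a median of -0.07. In neither family did a member reach an unadjusted p under 0.05.

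On the other side of 0, the let-7 family, abundant in mature neurons and a repressor of Lin28, had 8 of 9 members higher, with a median of 0.10 and a range from -0.01 to 0.11. Of all 314 miRNAs 45.9% were higher and 40.1% lower, the rest being at the floor. The family median was 0.04 without 17-month replicate 3, 0.06 without 10-month replicate 3, and between -0.0040 and 0.05 with the other normalizations apart from the spike-ins. With the labelling spike-ins the family median was -1.01. The pair miR-221 and miR-222 stood at 0.17 and 0.23, with overlapping ages.

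Of 10 neuron-enriched miRNAs, 4 were higher and 6 lower, with a median of -0.02, and miR-132 alone was under an unadjusted p of 0.05. miR-124, the principal neuronal miRNA, stood at 3.93, 3.98 and 4.02 at 10 months and at 4.01, 3.99 and 3.93 at 17 months. In the oligodendrocyte group miR-219-5p differed by -0.24 (standard error 0.13), miR-219-3p by -0.03 and miR-338-3p by 0.13. The 6 immune and microglial miRNAs had a median of 0.03, with miR-146a at 0.07, miR-21 at 0.04 and miR-223 at -0.21. Endothelial miR-126-3p differed by -0.01 and miR-143 of smooth muscle by 0.06. The 3 muscle miRNAs had a median of -0.07, and miR-204 of the choroid plexus stood at -0.06. miR-34a, a p53 target often linked to ageing, differed by -0.15 (standard error 0.22), and the ages overlapped.

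**Figure D5:**
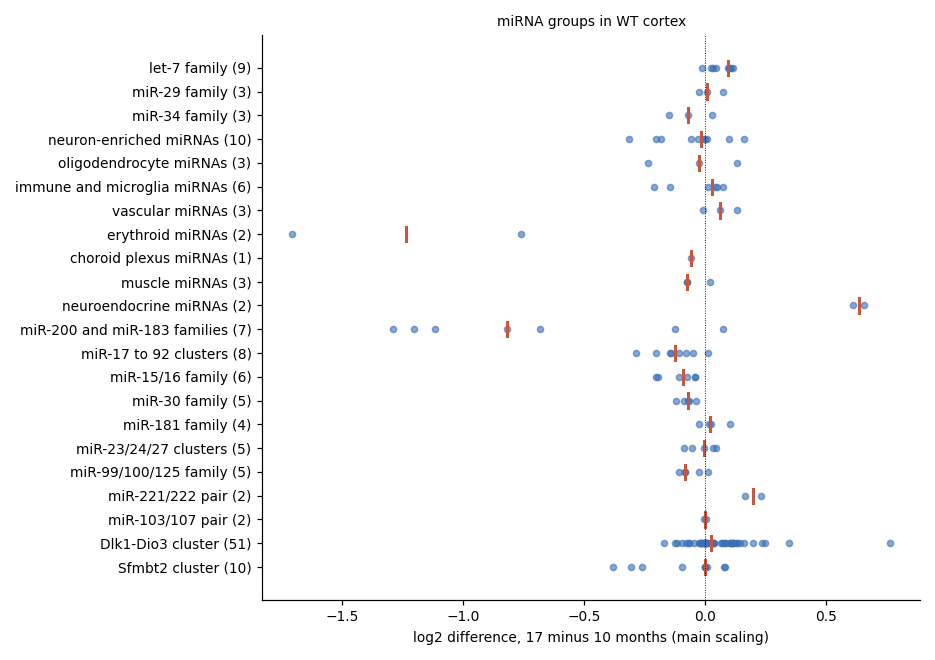
Log2 difference, 17 minus 10 months with the main scaling, of each tested member of 22 groups of miRNAs; red bars are group medians and numbers in brackets count members. Most members lie within 0.25 of 0, apart from the erythroid and neuroendocrine groups and the miR-200 with miR-183 group.

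Some groups lay far from 0 with overlapping ages. The miR-200 family of epithelia and the miR-183 family of sensory organs together had 6 of 7 members lower, with a median of -0.82. This median was -1.93 without 17-month replicate 1, -0.29 without 17-month replicate 2 and -0.23 without 17-month replicate 3, and 0.39 with normexp. miR-200a measured -2.52, -2.35 and -4.10 at 10 months and -1.77, -5.73 and -5.34 at 17 months. All 7 members were highest on 17-month array 1 and the ages overlapped in each, with a smallest unadjusted limma p of 0.292. Their summed signal was 0.28 to 0.75 at 10 months and 0.14 to 1.19 at 17 months. The olfactory bulb marker Tbx21 on the mRNA arrays was also highest on 17-month array 1, at -2.95, against -4.74 and -4.71 on the others, while Eomes, at -3.28 there, was highest on 10-month array 1 at -3.10. Summed over 3 olfactory bulb markers, the signal ranged from 1.46 to 2.73 at 10 months and from 1.26 to 3.33 at 17 months. A cerebellar marker, Pcp2, stood at 3.17 on 17-month array 2 and between -1.39 and -0.19 on the other arrays. The part of dissection in this spread was not tested. miR-7a and miR-7b, enriched in neuroendocrine cells, differed by 0.66 (standard error 0.38) and 0.61 (standard error 0.29), again with overlap.

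Detection itself ran one way. Of the 314 miRNAs, 80 were detected on more 10-month than 17-month arrays, and 0 on more 17-month arrays. Detection was judged on each array before scaling, and the 17-month arrays were dimmer. On the main scale the lowest level detectable was -5.80, -5.97 and -6.05 at 10 months and -4.86, -4.65 and -5.07 at 17 months. Of the 80, 52 were detected on at least 2 arrays at 10 months and on none at 17 months. Their median 10-month level was -5.73, the floor. No member of the 52 had a 10-month mean above the mean of the lowest levels detectable on the 3 17-month arrays, so no bound on a fold is given. Against the lowest of these 3 levels taken alone, 2 were above it, miR-211* and miR-144. The 52 include miR-211*, miR-144, miR-466h-3p, miR-3107 and miR-19a.

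On the slides, 2 arrays of each age shared one, and the third array of each age lay on a slide without the other age. With the slide as a block the fit thus rests on 2 arrays against 2, and it called 0 miRNAs, with 53 at an unadjusted p under 0.05. All 17 named miRNAs kept their sign, which the rule of no overlap between the ages had fixed in advance. The difference within the slide was 0.73 for miR-1224, 0.59 for miR-1895, 0.39 for miR-494, -1.07 for miR-690, -0.42 for miR-132 and -1.09 for miR-451.

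The same ages were compared in Tg2576 cortex, on arrays that share none with WT but on slides that partly do. The 10-month Tg2576 arrays shared a slide with replicates 1 and 2 of both WT ages. The 17-month Tg2576 arrays shared another with WT 17-month replicate 3. The part of these slides in what both comparisons have in common was not tested. In Tg2576 cortex 24 of the 314 miRNAs passed an adjusted p under 0.05 (7.64%), 4 higher and 20 lower at 17 months. All Tg2576 cortex arrays of an age lay on 1 slide, however, so age and slide cannot be told apart. Of the 21 miRNAs at an unadjusted p under 0.05 in WT cortex, 19 had the same sign in Tg2576 cortex, where 148 of all 270 miRNAs not at the floor (54.8%) did. miR-1224 differed by 0.51 there (limma adjusted p = 0.0308), miR-1895 by 0.59 and miR-690 by -0.68, and miR-451 by -1.30 without passing. A test of the difference between the genotypes called 0 miRNAs (0%), with a smallest adjusted p of 0.342 and 30 at an unadjusted p under 0.05. miR-219-5p, at -0.24 in WT and 0.77 in Tg2576 cortex, was the first of these (limma adjusted p = 0.342).

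In WT whole brain, 1 of the 314 miRNAs passed (0.318%), and 14 of the 21 had the sign of WT cortex, against 52.2% of the 270. The one that passed, named after its values were seen, was miR-720 at -0.57, which stood at 0.11 in cortex. miR-690 differed by -0.88 and miR-451 by -1.69 in whole brain, close to the cortical values. The test of whole brain against cortex called 2 miRNAs (0.637%), the dim miR-3092 and miR-3085-3p. Whole-brain differences were -0.06 and -0.01, with interactions of -0.96 (standard error 0.17) and -0.75 (standard error 0.13), both at a limma adjusted p of 0.037. Both stayed called when cortex 17-month replicate 1, cortex 17-month replicate 3 or whole-brain 10-month replicate 2 was left out, and neither when any other 1 array was. Neither was called with a slide or a replicate block, nor with any other normalization tried except normexp (limma adjusted p = 0.0016 for both). Normexp called 190 of the 314, and its offset of 50 outweighs signal this near background, so that call is not separate support.

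Host genes of intronic miRNAs gave a separate readout on the mRNA arrays. At an adjusted p under 0.05, 1800 of 39483 mRNA probes passed (4.56%), and 10247 (26%) at an unadjusted p under 0.05. These calls did not survive the loss of any array, with 0 to 30 remaining, nor a slide or replicate block. Of 25 host genes 9 (36%) had an unadjusted p under 0.05 and 3 were called (12%), with a median log2 difference of 0.06 against -0.02 for all probes. Aatk, a kinase gene that holds miR-338, was higher by 0.47 (standard error 0.08, limma adjusted p = 0.0414) where miR-338-3p differed by 0.13. Srebf2, a regulator of cholesterol synthesis, was higher by 0.42, with miR-33 at 0.06. Ppargc1b, a coactivator of mitochondrial genes, was higher by 0.63, with miR-378 at 0.03. Mcm7, a replication helicase subunit that holds miR-25, miR-93 and miR-106b, was at -0.24 (standard error 0.09, limma adjusted p = 0.154), the same sign as its 3 miRNAs. Vwa5b2 differed by 0.09 (standard error 0.11), against 0.94 for miR-1224.

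The 7 mRNA markers of cortical projection neurons had a median log2 difference of -0.10 with 0 called. At an unadjusted p under 0.05, 2 were higher and 1 lower, where 26% of all mRNA probes were under it. Tbr1 and Slc17a7 of this list were well above background on all 6 arrays. The 6 oligodendrocyte genes had a median of 0.20 with 0 called, 3 being higher and 1 lower at an unadjusted p under 0.05. The array held 39 marker genes. Among those reported, Cldn5 of endothelial tight junctions was the one called, higher by 0.69 (standard error 0.09, limma adjusted p = 0.0303). Of all mRNA probes 4.56% were called. With a slide or replicate block, or without 10-month replicate 1 or 17-month replicate 2, 0 mRNA probes were called, so Cldn5 was not either. The 5 microglial genes had a median of -0.03 with 0 called, and of them Cx3cr1, the fractalkine receptor, at 0.43 (limma adjusted p = 0.0654) and Csf1r at 0.20 had an unadjusted p under 0.05. The 3 astrocyte genes had a median of -0.07, with Gfap at 0.11 and Aqp4 at -0.25. Choroid plexus mRNA varied widely: Ttr was at 5.85, 5.73 and 3.58 at 10 months and at 2.66, 4.21 and 4.17 at 17 months.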

How the data were processed

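Total RNA of cortex was labelled with Cy3 and hybridized to Agilent arrays. The authors deposited spot intensity values from Agilent Feature Extraction 10.7.3.1, in which background was subtracted but arrays were not scaled to each other. They also deposited log2 values per feature, used as an alternative. The miRNAs and lists were chosen with earlier results of these data known.

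Spots marked as outliers were dropped, the mean was taken per probe and then per miRNA, and each array was divided by its 75th percentile over the 403 probes that cleared background on every miRNA array. Scaled values below a floor (log2 of -5.73) were set to it. A miRNA at the floor on all 6 arrays entered no fit and counted as tested, with p set to 1. mRNA log2 intensities were reduced by their array's 75th percentile, 55 probes with only outlier spots on an array were dropped, and 21307 of 39483 tested probes had a RefSeq symbol. For a gene with several probes, the brightest was used. limma 3.58.1 in R 4.3.3 fitted 3 arrays against 3, with Benjamini-Hochberg adjustment, and was checked on simulated data. So few arrays limit the precision.

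Since none passed the adjusted threshold, miRNAs were named by an unadjusted p under 0.05, no overlap of the ages and detection at both, at most 12 per direction, with the 3 brightest, those called in an interaction, members of the lists described and host genes. Scalings, background correction, floors, filters, blocks and left-out arrays were varied. One marker gene is not reported here.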

Additional observations from a re-analysis of the deposited data

Results flagged for a closer look

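The change with age of 2 miRNAs differed between cortex and whole brain of WT mice by the test of that difference. For miR-3092 the whole-brain difference minus the cortical one was -0.96, and for miR-3085-3p it was -0.75 (limma adjusted p = 0.037 for both). Both were at or next to the floor in 10-month-old cortex and were detected on 1 of 3 arrays at 17 months. Neither was called with the 75th percentile of all probes (limma adjusted p = 0.202 and 0.351), the authors' log2 values (0.2 and 0.241), the total signal (0.0942 and 0.178), median scaling (0.104 and 0.154), quantile normalization (0.0844 and 0.174), a floor 4 times lower (0.0823 and 0.127) or no filter (0.123 for both). With normexp both were called (limma adjusted p = 0.0016). Its offset of 50 outweighs signal this near background, and it called 190 miRNAs, so that call is not separate support. With the hybridization spike-ins the values were 0.15 and 0.29.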

How the results depend on the processing

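The 0 calls of the age comparison became 1 with the 75th percentile of all probes and 1 with a floor 4 times lower, 3 with quantile normalization, 4 with median scaling, 6 with all 12 cortex arrays in one model, 13 with the total signal, 15 with the authors' log2 values (3 higher, 12 lower) and 204 with normexp (201 higher), where an offset of 50 was added before scaling. The spike-in scalings, chosen after seeing the data, gave 232 (labelling) and 241 (hybridization), all lower. The count stayed 0 without any 1 array, with a slide block and with the other filters. The 21 at an unadjusted p under 0.05 became 37 with the authors' values, 50 with the total signal, 67.2% of those tested with normexp, 237 and 244 with labelling and hybridization spike-ins, 36 and 13 with the lower and higher floor, 14 with detection on every array, 30 with all 12 cortex arrays, 53 with a slide block, and 10 to 36 without 1 array. The cause of these shifts was not tested.

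With labelling and then hybridization spike-ins, the miRNAs higher at 17 months turned: miR-1224 to -0.18 and -0.19, miR-1895 to -0.18 and -0.20, miR-3092 to -0.072 and -0.16, miR-494 to -0.34 and -0.36, miR-3085-3p to -0.21 and -0.24, miR-652* to -0.62 and -0.64, miR-2145 to -0.66 and -0.68, miR-370 to -0.76 and -0.78, miR-29b-1* to -0.67 and -0.71, miR-331-3p to -0.86 and -0.88, and miR-29c* to -0.96 and -0.98. With normexp, miR-130b turned to 0.67, miR-19b to 0.11 and miR-25 to 0.34. Moved by over 1.5 times without turning were miR-370 to 0.59, miR-29b-1* to 0.78, miR-29c* to 0.33 and miR-690 to -0.30 with normexp. With the total signal miR-331-3p moved to 0.15, miR-25 to -0.24 and miR-130b to -0.74 (-0.70 with the authors' values, 0 with the higher floor), and miR-29c* moved to 0.09 with the authors' values. With a slide block miR-652* moved to 0.30 and miR-2145 to 0.29. The miR-200 and miR-183 median was -3.37 with the authors' values, -2.12 with the total signal, and -1.39 and -0.33 with the lower and higher floor. Without 1 array the immune and microglial miRNA median ran from -0.08 to 0.05 and the muscle one from -0.20 to 0.03. With normexp the immune and microglial median was 0.51, the muscle one 0.58 and the vascular one 0.47.

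The genotype interaction called 0.637% of the miRNAs tested with all probes, 0.318% with the lower floor, 52.5% with normexp, 58.0% and 67.5% with labelling and hybridization spike-ins, and 0% to 1.27% without 1 array. The tissue interaction, where miR-3092 and miR-3085-3p were among the calls with normexp and not with the other scalings, called 5 with all probes, 6 with the authors' values, 190 with normexp, 1 with the lower floor, 240 with hybridization spike-ins, 0 to 2 without 1 array, and 0 with median or quantile scaling, the higher floor, no filter, detection on every array or labelling spike-ins. Its value for miR-3092 turned to 0.15 with hybridization spike-ins, and that for miR-3085-3p to 0.10 with labelling and 0.29 with hybridization spike-ins. The 1800 mRNA calls became 608 with median scaling, 16 without a filter, 4781 with all 12 cortex arrays, 0 with a slide block and 0 to 30 without 1 array.

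Same-numbered arrays of the ages deviated with correlations of 0.27, -0.57 and 0.43, so the numbers were not taken as pairs. With the replicate block the age comparison called 0 (smallest limma adjusted p = 0.292), the tissue interaction 0 and the mRNA comparison 0. Signal near background limits miRNAs at the floor, 44 of 314 on all 6 arrays.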

Other observations

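Probes for viral miRNAs, which the comparison does not use, were above background for 2 or 3 miRNAs on each 10-month array and for 2 on each 17-month array of WT cortex, and for 2 to 4 on all 24 arrays.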
